A study of Mus musculus with 25 samples.

Results

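The expression of 7 genes of iron storage, iron transport and heme breakdown (Fth1, Ftl1, Hmox1, Slc40a1, Slc11a1, Slc11a2 and Tfrc) was followed in microglia sorted from the brains of 23 mice. The genes were chosen by name from 43411 genes in the count table, and all 7 were among the 12908 genes with enough counts to be tested. Microglia, the resident macrophages of the brain, were sorted as CD11b+; CD45med cells from 3-month-old mice, and the comparisons ask how microglia differ when Bin1 is deleted in neurons. The homozygous group (Homo-cKO, 10 mice, 5 female and 5 male) carried 2 floxed Bin1 alleles and Thy1-Cre. The heterozygous group (Het-cKO, 7 mice, 4 female and 3 male) carried 1 floxed and 1 wild-type Bin1 allele and Thy1-Cre. The control group (WT, 6 mice, 2 female and 4 male) also carried 1 floxed allele beside a wild-type one, without Cre. The floxed line was B6.129S6-Bin1tm2Gcp/J and the Cre line FVB/N-Tg(Thy1-cre)1Vln/J. The Thy1 promoter drives Cre in forebrain excitatory neurons. By design, the microglia measured here were therefore not the cells in which Bin1 was targeted, though Bin1 counts differed in them, as given below. All WT and Het-cKO mice had animal numbers starting with 02, while 6 Homo-cKO mice had numbers starting with 03 and 4 with 04, so genotype and animal number range cannot be told apart.

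Ferritin is a shell of heavy (Fth1) and light (Ftl1) chains that holds iron in a safe form inside the cell, and the heavy chain carries the ferroxidase activity that oxidizes iron as it enters the shell. Hmox1 opens the heme ring and frees its iron, Slc40a1 (ferroportin) is the known exporter of iron from cells, Slc11a1 (NRAMP1) and Slc11a2 (DMT1) move divalent metals out of phagosomes and endosomes into the cytosol, and Tfrc (the transferrin receptor) takes up transferrin-bound iron. Macrophages, microglia among them, are known for taking up and recycling iron. Much of the control lies in the messenger RNA itself. When iron is scarce, iron regulatory proteins bind hairpins called iron-responsive elements, which blocks translation where the hairpin lies in the 5′ UTR and protects the message from decay where it lies in the 3′ UTR. A change of protein through the 5′ elements would therefore not be seen in the counts, which measure messenger RNA only.

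The elements are shown because they lie in the 5′ UTR of 3 of the 7 genes and in the 3′ UTR of 1. Annotated transcripts (GENCODE M21, build GRCm38) were searched on the transcribed strand for an unpaired C, then 5 bases, the loop CAGTG followed by A, C or T, and 5 bases that pair with the first 5, with G-T pairs allowed. Such a match was found in the 5′ UTR of 0.11% of 20916 coding genes and in the 3′ UTR of 0.461% of 21707. Fth1, Ftl1 and Slc40a1 each held 1 match in the 5′ UTR and Tfrc held 4 in the 3′ UTR. Each sequence below is 29 bases long, and its capitals mark the 6-base loop. In Fth1 it lies at chr19:9982732-9982760 on the plus strand, in Ftl1 at chr7:45459779-45459807 on the minus strand and in Slc40a1 at chr1:45925465-45925493 on the minus strand.
Fth1: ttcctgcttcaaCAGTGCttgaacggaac
Ftl1: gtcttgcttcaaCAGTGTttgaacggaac
Slc40a1: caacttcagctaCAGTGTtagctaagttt
The 4 matches of Tfrc followed one another in its 3′ UTR, at chr16:32631219-32631247, chr16:32631598-32631626, chr16:32631663-32631691 and chr16:32631710-32631738 on the plus strand.
Tfrc match 1: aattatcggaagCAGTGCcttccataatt
Tfrc match 2: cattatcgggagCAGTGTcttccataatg
Tfrc match 3: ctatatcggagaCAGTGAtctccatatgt
Tfrc match 4: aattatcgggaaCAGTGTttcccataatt
Slc11a2 held the unpaired C and the loop in the 3′ UTR of its longest coding transcript, at chr15:100395153-100395181 on the minus strand, with 4 of the 5 pairs.
Slc11a2: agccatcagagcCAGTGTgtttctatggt
The full pattern was not found in the UTRs of Hmox1 or Slc11a1, which says only that these letters are not there.

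The libraries held between 10812877 and 16734740 counts, and WT, Het-cKO and Homo-cKO libraries overlapped in depth. Bin1 itself was measured in these microglia at 699 ± 88.3 CPM (mean ± SD; CPM, a count relative to the TMM-adjusted size of its library) in WT, 692 ± 40.6 in Het-cKO and 481 ± 130 in Homo-cKO mice. It was lower in Homo-cKO mice against WT (log2 fold change -0.60, edgeR quasi-likelihood adjusted p = 0.00173) and against Het-cKO (-0.53, adjusted p = 0.00154). The source of this fall was not tested. The microglia markers Csf1r, P2ry12, Cx3cr1 and Tmem119 were abundant, at or above the 5683 CPM of the lowest Cx3cr1 value in every mouse, and these 4 of the 7 markers reported here fell in Homo-cKO mice against WT, while Siglech, Sall1 and Fcrls did not pass. The neuron markers summed to between 11.7 and 34.8 CPM in WT and between 4.29 and 8.23 in Homo-cKO mice, with 3 of 5 tested lower. The border macrophage marker Mrc1 and the endothelial marker Cldn5 were listed at 0 in all 23 mice. Other markers of both cell types were detected, so these zeros do not show that the cells were absent. The 7 endothelial markers summed to 44.4 to 82.0 CPM in WT, 51.25 to 72.3 in Het-cKO and 37.0 to 61.2 in Homo-cKO mice. Of 2 tested, Pecam1 fell against WT (log2 fold change -0.49, adjusted p = 0.0209) and Kdr did not pass (-0.13, adjusted p = 0.737). Immediate-early genes were higher in Homo-cKO mice against WT (12 of 14 tested). Over all genes, 5.66% rose and 7.09% fell against WT. Fos exceeded 100 CPM in 4 Homo-cKO mice (F-0333, F-0342, M-0328 and M-0329) and in 0 of the other 19 mice. In bulk counts, fewer cells of a type and less RNA per cell cannot be told apart. Which mice shared a litter or a sort was not given, and p-values measure the spread between these mice.

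CPM values divided by the length of the first-listed coding transcript in kilobases put the 7 genes in tiers, with Tfrc alone in the lowest. Ftl1 was highest, with a mean over all mice of 1621 CPM per kb and a range of 1223 to 2020, which ranked it 28th of 11061 coding genes. Fth1 followed at 988 CPM per kb (range 664 to 1449, rank 46). The iron exporter Slc40a1 (152 CPM per kb, range 104 to 198) and the phagosomal metal transporter Slc11a1 (131, range 94.7 to 159) formed the next tier and overlapped. Hmox1 (18.0, range 14.8 to 24.1) and Slc11a2 (15.4, range 10.5 to 22.1) overlapped as well, and Tfrc was lowest at 3.09 CPM per kb (range 1.80 to 4.63). With the longest coding transcript in place of the first-listed one, Fth1 came to 615 and Slc11a2 to 10.5 CPM per kb, and the order of the 7 genes did not change. The storage genes stood far above the transferrin receptor in every mouse of all 3 groups.

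**Figure D1:**
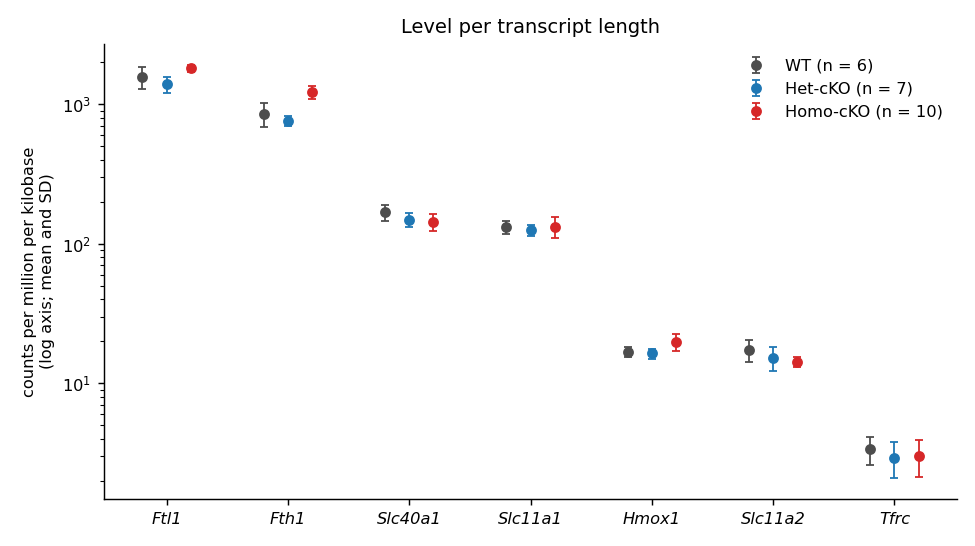
Levels of the 7 genes as CPM per kilobase of the first-listed coding transcript, on a log axis, for WT (n = 6), Het-cKO (n = 7) and Homo-cKO (n = 10) mice; points are means and bars SDs. Ftl1 and Fth1 lie highest, Slc40a1 and Slc11a1 in the middle and Tfrc lowest in each group.

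Fth1, the ferritin heavy chain (ENSMUSG00000024661.6, chr19:9980598-9985098, plus strand), rose in microglia of Homo-cKO mice. It ranged from 617 to 1053 CPM in WT mice (median 785), from 640.3 to 816 in Het-cKO mice (median 709) and from 958 to 1347 in Homo-cKO mice (median 1113). All 10 Homo-cKO mice were above all 7 Het-cKO mice, and 8 of 10 were above every WT mouse. The overlap with WT came from 1 WT female, F-0224, at 1053 CPM. The means were 799 ± 157 (SD, n = 6), 709 ± 64.0 (n = 7) and 1137 ± 123 (n = 10). Against WT the log2 fold change was 0.49 ± 0.09 (SE), a fold of 1.40, with adjusted p = 0.000908 (edgeR quasi-likelihood test over all 12908 genes). Against Het-cKO it was 0.69 ± 0.08, a fold of 1.62, with adjusted p = 8.96e-06, which placed it 17th of all genes by p. Ranges that did not overlap between Homo-cKO and Het-cKO were found for 2.32% of all genes, and between Homo-cKO and WT for 1.81%. The rise was present in both animal number ranges of the Homo-cKO mice, at 1071 CPM (958 to 1189) in the 6 mice of the 03 range and 1235 (1103 to 1347) in the 4 of the 04 range. The log2 fold changes were 0.39 (adjusted p = 0.00769) and 0.61 (adjusted p = 0.00176). Each was taken against the same WT mice, all of the 02 range, so this split does not separate genotype from number range. The 4 Homo-cKO mice with high Fos averaged 1068 CPM and the other 6 averaged 1182, and without those 4 mice the log2 fold change against WT was 0.54 (adjusted p = 0.00214). The markers of monocytes and neutrophils summed to 4.70 to 27.6 CPM in WT (median 9.36), 4.42 to 35.3 in Het-cKO (median 7.69) and 12.6 to 66.6 in Homo-cKO mice (median 33.0). Of 5 tested, 1 passed, Ccr2, which rose against WT (log2 fold change 1.28, adjusted p = 0.000812) and against Het-cKO (1.14, adjusted p = 0.000613), while Ly6c2 was at 0 in 13 of 23 mice. Their part in the rises of Fth1, Ftl1 and Hmox1 was not tested. Fth1 counts, between 7579 and 22072 per mouse, left little counting error.

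**Figure D2:**
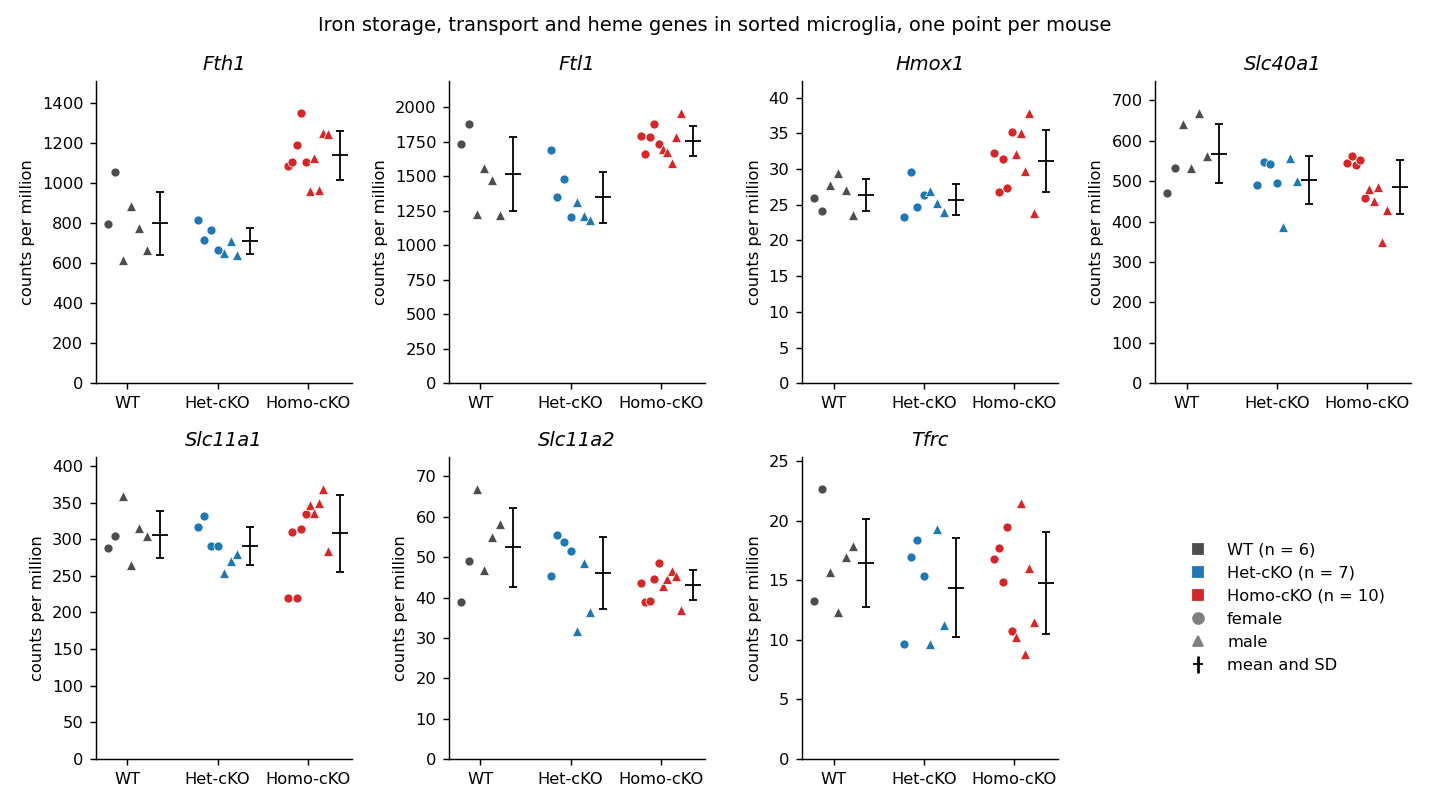
CPM of each of the 7 genes in 23 mice, by genotype (circles: females, triangles: males; black bars: mean and SD; each axis starts at 0). In the Fth1 panel all 10 Homo-cKO mice lie above all 7 Het-cKO mice, and in the other 6 panels the groups overlap.

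Ftl1, the ferritin light chain (ENSMUSG00000050708.12, chr7:45457944-45459884, minus strand), rose against Het-cKO mice by less than Fth1 and did not pass the test against WT. It ranged from 1216 to 1878 CPM in WT (median 1517), from 1184 to 1692 in Het-cKO (median 1315) and from 1594 to 1955 in Homo-cKO mice (median 1759.9). The groups overlapped, with 7 of 10 Homo-cKO mice above every Het-cKO mouse but 2 of 10 above every WT mouse. The log2 fold change against Het-cKO was 0.40 ± 0.07 (adjusted p = 0.00065). Against WT it was 0.20 ± 0.08 with a 95% interval of 0.04 to 0.36 and adjusted p = 0.101, and without WT mouse F-0224 it was 0.25 with adjusted p = 0.0474. Some annotated genes share over 50% of their 25-base sequences with Ftl1, among them Ftl1-ps1 and Ftl2-ps. Their counts came to 0.592% and 0.197% of those of Ftl1, and with them added the log2 fold change against WT was 0.20 again. No such gene was found for Fth1.

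The fitted log2 fold change of the heavy chain was larger than that of the light chain in both Homo-cKO comparisons, and the balance of the pair moved with it. The Fth1 count divided by the Ftl1 count was 0.528 ± 0.041 (SD) in WT, 0.529 ± 0.034 in Het-cKO and 0.646 ± 0.046 in Homo-cKO mice. In 9 of 10 Homo-cKO mice this ratio was above 0.584, the highest value among the other 13 mice. Together the 2 chains took 0.224% ± 0.046 of all counts in WT, 0.202% ± 0.021 in Het-cKO and 0.299% ± 0.026 in Homo-cKO mice. These are descriptions of 2 genes already compared above, with no test of their own.

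**Figure D3:**
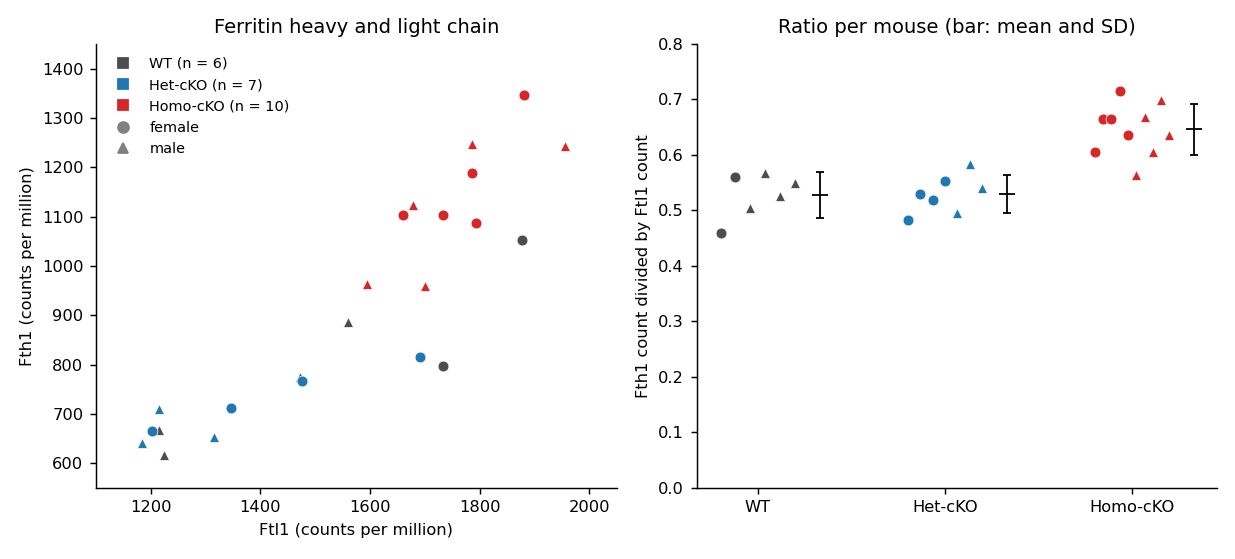
Left, Fth1 against Ftl1 in CPM, 1 point per mouse (axes do not start at 0); right, the Fth1 count divided by the Ftl1 count per mouse, with mean and SD (axis from 0). Both chains vary together within groups, and 9 of 10 Homo-cKO mice have a ratio above 0.584.

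Hmox1, the inducible heme oxygenase (ENSMUSG00000005413.7, chr8:75093621-75100589, plus strand), rose slightly against Het-cKO mice. It ranged from 23.5 to 29.4 CPM in WT (median 26.5), from 23.2 to 29.6 in Het-cKO (median 25.2) and from 23.8 to 37.8 in Homo-cKO mice (median 31.8). In 7 of 10 Homo-cKO mice it was above all 13 other mice, while Homo-cKO male M-0437 was at 23.8, near the lowest of the series. Against Het-cKO the log2 fold change was 0.27 ± 0.09 (adjusted p = 0.0239), and against WT 0.25 ± 0.09 (95% interval 0.06 to 0.44, adjusted p = 0.0702). The call against Het-cKO was lost with the 04 range alone (adjusted p = 0.145), without the 4 mice with high Fos (0.0816), with the immediate-early level as a covariate (0.112), without Het-cKO mouse M-0227 (0.0571) and with a trend of expression on transcript length removed (0.0777), although the log2 fold change stayed between 0.22 and 0.32 under all alternatives. Against WT the call was gained without M-0437 (0.30, adjusted p = 0.0219). The markers of border macrophages, another iron-handling cell type that the gate could hold, summed to 274 to 468 CPM in WT, 280.9 to 431.6 in Het-cKO and 265 to 434 in Homo-cKO mice. Most of this sum was Stab1, with means of 324, 354.5 and 292 CPM. The other tested markers were at or below 10.4 CPM on average in each group, so the sum says little about them. Of the 6 tested, 0 passed in any of the 3 comparisons, and 4 had a log2 fold change above 0 in Homo-cKO against WT.

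Slc40a1, the iron exporter (ENSMUSG00000025993.8, chr1:45908068-45926523, minus strand), did not pass the test in any of the 3 comparisons. It ranged from 470.5 to 668 CPM in WT (median 548), from 387 to 559 in Het-cKO (median 501) and from 350.2 to 563 in Homo-cKO mice (median 482). The groups overlapped, though 4 of 10 Homo-cKO mice were below every WT mouse. The log2 fold change was -0.25 ± 0.10 against WT (95% interval -0.45 to -0.06, adjusted p = 0.0832) and -0.05 ± 0.09 against Het-cKO (adjusted p = 0.741). Against WT it passed without WT female F-0210 (-0.34, adjusted p = 0.0309) and with DESeq2 (-0.26, adjusted p = 0.0499). In the 03 range alone it was -0.16 and in the 04 range alone -0.36. Each mouse had between 4537 and 9063 counts of Slc40a1, and whether depth limits its test was not tested.

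The metal transporters of phagosomes and endosomes did not pass the test. Slc11a1, which is best known from resistance to intracellular bacteria (ENSMUSG00000026177.9, chr1:74375195-74386062, plus strand), ranged from 264 to 359 CPM in WT (median 305), from 254 to 331 in Het-cKO (median 290.2) and from 219.2 to 368 in Homo-cKO mice (median 324). The lowest of all 23 values were those of Homo-cKO females F-0333 and F-0357, at 219.2 and 219.9, and the highest that of Homo-cKO male M-0436. Its log2 fold change was 0.02 ± 0.10 against WT (95% interval -0.19 to 0.22) and 0.07 ± 0.10 against Het-cKO. Slc11a2, the endosomal transporter that passes iron from transferrin to the cytosol (ENSMUSG00000023030.14, chr15:100387898-100425072, minus strand), ranged from 39.0 to 66.9 CPM in WT (median 51.9), from 31.8 to 55.4 in Het-cKO (median 48.6) and from 36.9 to 48.6 in Homo-cKO mice (median 44.0). The Homo-cKO mice lay within the span of the other 13, with a coefficient of variation of 8.64% against 18.6% in WT and 19.4% in Het-cKO. Its log2 fold change was -0.29 ± 0.11 against WT (95% interval -0.52 to -0.06, adjusted p = 0.0947), which passed without WT female F-0210 (-0.39, adjusted p = 0.0318), and -0.09 ± 0.11 against Het-cKO (95% interval -0.32 to 0.13).

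Tfrc, the receptor that brings transferrin iron into cells (ENSMUSG00000022797.13, chr16:32608920-32632794, plus strand), was the least expressed and the most variable of the 7. It ranged from 12.4 to 22.7 CPM in WT (median 16.3), from 9.62 to 19.3 in Het-cKO (median 15.3) and from 8.82 to 21.5 in Homo-cKO mice (median 15.4). The groups overlapped, with 4 of 10 Homo-cKO mice and 3 of 7 Het-cKO mice below every WT mouse. The log2 fold change was -0.19 ± 0.19 against WT (95% interval -0.59 to 0.20, adjusted p = 0.561) and 0.05 ± 0.18 against Het-cKO (95% interval -0.33 to 0.43, adjusted p = 0.876). Tfrc had 113 to 319 counts per mouse, the fewest of the 7.

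Between genotypes, 1 of 7 genes (Fth1) passed an adjusted p of 0.05 in Homo-cKO against WT, where 12.7% of all genes passed. In Homo-cKO against Het-cKO, 3 of 7 (Fth1, Ftl1 and Hmox1, all higher) passed, where 22.7% of all genes passed. With a fold change above 1.5 required as well, 0 of 7 passed against WT (3.4% of all genes) and 1 of 7, Fth1, against Het-cKO (6.62%). Unadjusted p was under 0.05 for 5 of 7 genes against WT, where 27.1% of all genes had such a p, namely Fth1, Ftl1 and Hmox1 (higher) and Slc40a1 and Slc11a2 (lower). The median log2 fold change of the 7 was 0.02 against WT and 0.07 against Het-cKO, beside 0.01 and -0.00273 over all genes. Homo-cKO mice enter both comparisons, so these are not independent of each other.

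In Het-cKO against WT, 0 of 7 genes passed, as for all genes (0% of 12908, with 998 at an unadjusted p under 0.05, or 7.73%, and 3 called by DESeq2). The unadjusted p was under 0.05 for 2 of 7, Fth1 (0.0371) and Ftl1 (0.0231). All 7 log2 fold changes were below 0, from -0.24 for Tfrc to -0.02 for Hmox1 (median -0.20), while 50.8% of all genes were below 0. The largest of these in relation to its error was that of Ftl1, at -0.20 ± 0.08 (95% interval -0.38 to -0.03, adjusted p = 0.583). For Fth1 it was -0.21 ± 0.09 (adjusted p = 0.612). The WT and Het-cKO ranges of both ferritin chains overlapped, with 3 of 7 Het-cKO mice below every WT mouse for Ftl1 and 0 of 7 for Fth1.

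**Figure D4:**
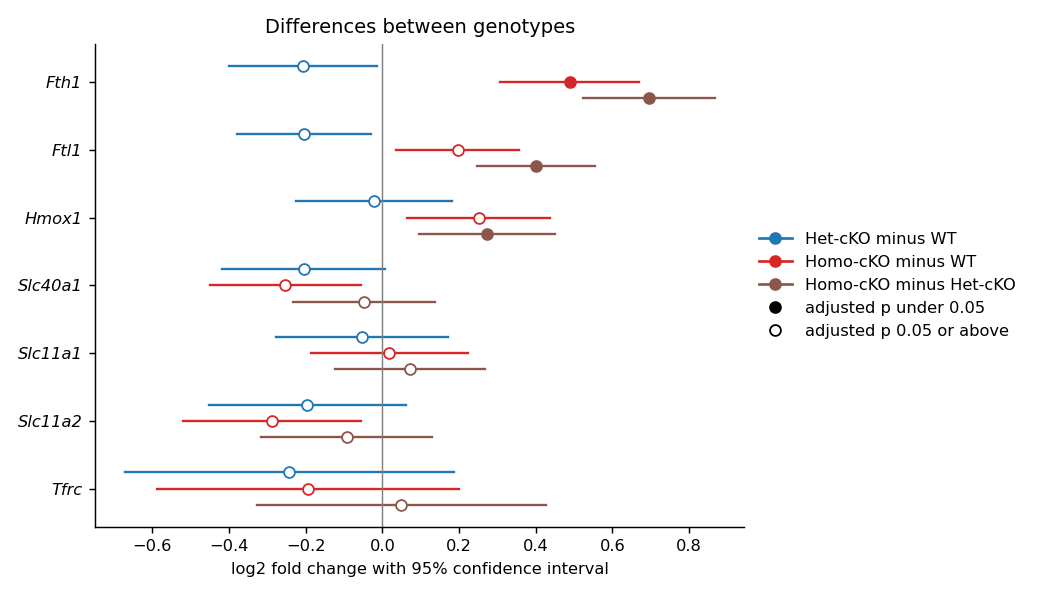
Log2 fold changes of the 7 genes with 95% confidence intervals in 3 comparisons (filled points: adjusted p under 0.05, edgeR quasi-likelihood test). Fth1 is filled in both Homo-cKO comparisons, Ftl1 and Hmox1 only against Het-cKO, and no gene in Het-cKO against WT.

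Sex was examined because WT held 2 females and 4 males. In males, Homo-cKO against WT, 3 of 7 genes passed (6.06% of all genes did): Fth1 (log2 fold change 0.59, adjusted p = 0.00365), Ftl1 (0.35, adjusted p = 0.0246) and Slc40a1 (-0.45, adjusted p = 0.0124). The ranges of the 5 Homo-cKO and 4 WT males did not overlap for 4 of 7 genes, beside 8.07% of all genes. These were Fth1 (958 to 1248 CPM against 617 to 886), Ftl1 (1594 to 1955 against 1216 to 1560.2), Slc40a1 (350.2 to 485 against 534 to 668) and Slc11a2 (36.9 to 46.6 against 46.7 to 66.9), the last of which did not pass the test (adjusted p = 0.0535). In females, 0 of 7 passed (0.457% of all genes did), with Fth1 at 0.33, Ftl1 at -0.03 and Slc40a1 at 0.08. The difference between the sexes was itself tested and 0 of 7 genes passed (0% of all genes, with 644 at an unadjusted p under 0.05 and 1 called by DESeq2). The unadjusted p of that difference was 0.00435 for Slc40a1 (-0.54) and 0.0153 for Ftl1 (0.38), each with adjusted p = 0.908. Between males and females of all genotypes, 0 of 7 genes passed, where 0.0852% of all genes did, and both ferritin chains had lower fitted levels in males (Fth1 -0.16, unadjusted p = 0.0324, and Ftl1 -0.17, unadjusted p = 0.0118). The level of short relative to long genes, described below, was -0.263, -0.17, -0.0163 and 0.129 in WT males M-0211, M-0222, M-0215 and M-0214. In WT females F-0210 and F-0224 it was 0.106 and 0.0915. The length trend was not removed in these tests of sex, and its part in them was not tested.

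Among the mice of a genotype, the 2 ferritin chains varied together. After the mean of each genotype was subtracted from log2 CPM, the correlation of Fth1 with Ftl1 over 23 mice was r = 0.838 and rho = 0.827 (permutation of mice within genotype, p = 3e-05 for each, adjusted p = 0.00063 over 21 pairs). It was 0.91 in WT, 0.89 in Het-cKO and 0.784 in Homo-cKO mice, and 0.752 without the 2 mice farthest from the median of Fth1. Slc11a1 and Slc11a2 also varied together (r = 0.491, rho = 0.567, adjusted permutation p = 0.0267 and 0.0338), with r = 0.653 without the 2 mice farthest out. For the other 19 pairs the adjusted permutation p was above 0.05. Slc40a1 and Slc11a2 had r = 0.844 in WT and 0.822 in Het-cKO but -0.249 in Homo-cKO mice, a difference that was not tested. Fth1 had r = -0.148 with Slc40a1 and 0.327 with Tfrc. The level of short genes relative to those over 3 kb, described below, also varied among the mice of a genotype. It ranged from -0.263 to 0.129 in WT, from -0.197 to 0.0594 in Het-cKO and from -0.091 to 0.198 in Homo-cKO mice. No length trend was removed before these correlations, and its part in them was not tested.

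The genes whose log2 CPM followed each gene most closely over the 23 mice were picked as the 2 highest Pearson correlations among all tested genes, and are given as a description. For Fth1 these were Myl12b, a myosin regulatory light chain (r = 0.923), and Ftl1 (0.904). For Ftl1 they were Fth1 and Tmem256 (0.885). Slc40a1 was followed by Pgrmc1, a heme-binding membrane protein (0.892), and Osbpl2 (0.853). Slc11a2 was followed by Itfg1 (0.921) and Wls (0.904), Slc11a1 by Gm45837 (ENSMUSG00000030653.14, 0.786) and H6pd (0.782), Hmox1 by Pgghg (0.753) and 6030458C11Rik (0.745), and Tfrc by Mfn2 (0.716) and Vps37c (0.714). With genotype means removed, r stayed at 0.882 for Slc40a1 and Pgrmc1 and at 0.903 for Slc11a2 and Itfg1, and came to 0.717 for Fth1 and Myl12b. All mice share the scaling to library size, and the genes were not chosen by function.

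Of 84 other iron and heme genes listed by role, 68 were tested, and 9 passed in Homo-cKO against WT (3 higher and 6 lower). That share, 13.2%, was near the 12.7% of all genes, and the median log2 fold change was 0.03. Against Het-cKO, 14 passed (9 higher and 5 lower), or 20.6% beside 22.7% of all genes. In Het-cKO against WT, 0 passed.

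Of 9 tested genes of heme breakdown and transport, 3 fell against WT and 0 rose, where 7.09% of all genes fell and 5.66% rose. Slc46a1, a carrier of folate and heme, went from 274 ± 28.8 CPM in WT to 200.7 ± 25.4 in Homo-cKO mice (log2 fold change -0.47 ± 0.09, adjusted p = 0.000986). Abcb6, a porphyrin transporter, went from 38.5 ± 3.70 to 27.7 ± 4.24 (-0.48, adjusted p = 0.00584). Abcg2, an exporter of heme and porphyrins among many substrates, went from 77.4 ± 8.02 to 62.4 ± 5.77 (-0.30, adjusted p = 0.00578), and did not pass against Het-cKO (-0.11, adjusted p = 0.219). The constitutive heme oxygenase Hmox2, at 153.5 ± 13.1 and 159.9 ± 18.3 CPM, and the biliverdin reductase Blvra, at 45.4 ± 2.16 and 47.1 ± 3.92, were chosen here after their values were seen, as the enzymes beside Hmox1, and did not pass (adjusted p = 0.723 and 0.696). Of 10 heme synthesis genes, 1 fell against WT. This was Cpox, coproporphyrinogen oxidase, from 55.0 ± 7.16 to 44.4 ± 3.89 CPM (-0.31, adjusted p = 0.0107), with 63.5 ± 5.76 in Het-cKO mice. Without the 4 mice high in Fos, Cpox (log2 fold change -0.30, adjusted p = 0.0521) and Abcg2 (-0.24, 0.0605) did not pass against WT. With the immediate-early covariate, Abcb6 (-0.39, 0.0671) and Abcg2 (-0.23, 0.0822) did not. Cpox did not pass with the 03 range alone (-0.26, 0.0581), nor Abcg2 (-0.22, 0.171) and Abcb6 (-0.36, 0.0873) with the 04 range alone. Slc46a1 passed in all 38 alternatives.

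Among 12 tested genes of iron uptake and movement, 2 fell against WT and 0 rose, where 7.09% of all genes fell and 5.66% rose. Lrp1, a large endocytic receptor that takes up heme-hemopexin among many ligands, went from 746 ± 125 CPM to 458 ± 105 (log2 fold change -0.69 ± 0.13, adjusted p = 0.00115). Trf, transferrin, went from 2339 ± 304 to 1857 ± 301 (-0.33 ± 0.10, adjusted p = 0.0365), and did not pass against Het-cKO (-0.25, adjusted p = 0.0714). The call of Trf against WT was lost in 12 of 38 alternatives, 8 of them the removal of 1 mouse (WT F-0210, F-0224, M-0211, M-0215 or M-0222, or Homo-cKO F-0333, F-0342 or M-0329). Transferrin is also a product of oligodendrocytes, whose 7 markers summed to 179 to 253 CPM in WT and 153 to 209 in Homo-cKO mice, with 2 of 5 tested lower (Mbp and Mobp), and their part in the result was not tested. The neutrophil iron-binding genes Lcn2 and Ltf, named after their values were seen, had the highest fold changes of the list and were at or below 4.28 CPM on average in each group (adjusted p = 0.407 and 0.578). Of 8 tested genes of iron sensing and ferritin turnover, 0 passed against WT. The most abundant were Pcbp1, an iron chaperone that loads ferritin, at 317 ± 17.1 CPM in WT and 347 ± 9.63 in Homo-cKO mice (adjusted p = 0.0961), and Ncoa4, the receptor that sends ferritin to lysosomes, at 232.2 ± 20.5 and 234 ± 22.4 (adjusted p = 0.942). Fbxl5, part of the ligase that removes an iron regulatory protein, was named after its values were seen as the gene of this list that passed against Het-cKO (0.33, adjusted p = 0.0175).

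Of 15 tested genes of NRF2 and BACH1, the activator and repressor of Hmox1 and ferritin transcription, and of their targets, 3 rose against WT and 0 fell. Over all genes, 5.66% rose and 7.09% fell. Gsr, glutathione reductase, went from 18.2 ± 2.70 CPM to 24.2 ± 3.89 (log2 fold change 0.42 ± 0.11, adjusted p = 0.0112). Txn1, thioredoxin, went from 25.9 ± 4.13 to 33.3 ± 3.67 (0.35, adjusted p = 0.0178). Gclc, the catalytic subunit of the rate-limiting enzyme of glutathione synthesis, went from 89.7 ± 10.9 to 108 ± 16.3 (0.29, adjusted p = 0.0343). It did not pass against Het-cKO (0.20, adjusted p = 0.0969). The call of Gclc against WT was lost in 11 of 38 alternatives, 7 of them the removal of 1 mouse (WT F-0210, F-0224, M-0214, M-0215 or M-0222, or Homo-cKO F-0333 or M-0436). The call of Txn1 was lost without WT mouse M-0211 (0.30, adjusted p = 0.054) and with the 03 range alone (0.28, adjusted p = 0.0947), and that of Gsr with the 04 range alone (0.41, adjusted p = 0.0502). Of the 15, 12 had a log2 fold change above 0 against WT (median 0.10), beside 52% of all genes. Against Het-cKO, 3 of the 15 rose (Gsr, Txn1 and Prdx1) and 1 fell, Bach1 (-0.33, adjusted p = 0.0123). Over all 12908 genes, 1428 rose and 1508 fell in that comparison. Bach1 did not pass against WT (-0.17, adjusted p = 0.265), and Bach1 and Prdx1 were named after their values were seen. Nqo1, a common marker of NRF2 activity, was not tested, since it lay at or below 1.11 CPM in every mouse. Of 14 iron-sulfur cluster genes, 0 passed against WT and 3 rose against Het-cKO, where 1428 of all 12908 genes rose. The most abundant were Iscu, the assembly scaffold, at 164 ± 15.4 CPM in WT and 172 ± 9.91 in Homo-cKO mice (adjusted p = 0.562 against WT), and Isca1, a carrier, at 78.7 ± 5.65 and 82.5 ± 7.87 (adjusted p = 0.547).

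**Figure D5:**
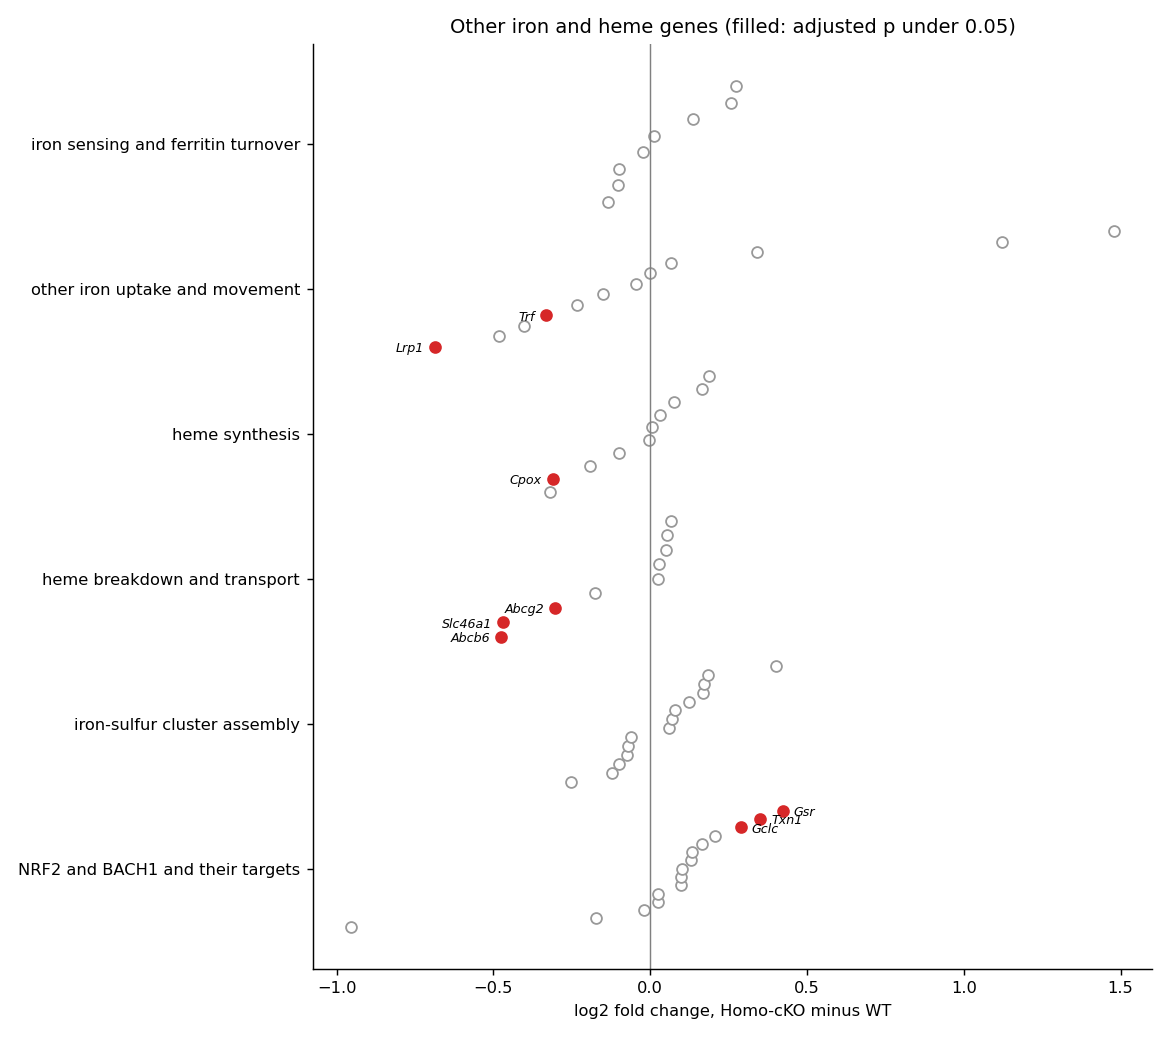
Log2 fold changes in Homo-cKO against WT of 68 other iron and heme genes in 6 lists, 1 point per gene (filled and named: adjusted p under 0.05). The 6 genes that fell lie in the uptake and heme lists and the 3 that rose in the NRF2 and BACH1 list.

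The fold changes between genotypes differed with transcript length, and the ferritin transcripts are short (929 and 968 bases). Over all 938 tested coding genes of up to 1 kb, the median log2 fold change was 0.06 against WT and 0.11 against Het-cKO. Over 1655 genes longer than 5 kb it was -0.05 and -0.14. The median level of short genes relative to those over 3 kb was taken per mouse, on the log2 scale and relative to the mean of all mice. It ranged from -0.26 to 0.13 in WT (median over mice 0.04), from -0.20 to 0.06 in Het-cKO (-0.13) and from -0.09 to 0.20 in Homo-cKO mice (0.08). These ranges overlapped, and their difference between genotypes was not tested. With the length trend of each mouse removed, Fth1 had log2 fold changes of 0.45 against WT (adjusted p = 0.000425) and 0.60 against Het-cKO (adjusted p = 1.12e-05), and Ftl1 had 0.16 (adjusted p = 0.0966) and 0.31 (adjusted p = 0.0011). Lrp1, whose log2 fold change against WT was -0.69, had -0.53 (adjusted p = 0.00324). The red cell markers, mainly hemoglobin chains, summed to 0 to 31.8 CPM in WT, 0 to 49.9 in Het-cKO and 0 to 51.4 in Homo-cKO mice, and 0 of 4 tested passed in Homo-cKO against WT.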

How the data were processed

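Microglia RNA was measured by single-end RNA-seq in 25 labelled samples, of which 23 have a column in the table used here. According to the methods of the study, 1 WT female and 1 Het-cKO male were removed for poor mapping and duplication. The authors aligned reads to mm10 with OSA4 and deposited RSEM expected counts per gene (Ensembl R84). Of these deposited expected counts, 82.2% were exactly whole with zeros counted and 54.4% among values above 0, and all were rounded for testing. The submitters' processing notes list RSEM, DESeq2 and mm10 without versions. Multi-mapping reads are shared out by RSEM, which can split reads between Ftl1 and its pseudogenes.

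Gene symbols came from GENCODE M21 (42929 of 43411 identifiers matched), Tf was matched as Trf, and Ly6g and Ahsp had no match. Total counts per mouse were between 10812877 and 16734740. Genes were filtered with filterByExpr and scaled with TMM, and genotype and sex were fitted with the edgeR 4.0.16 quasi-likelihood test (R 4.3.3), with Benjamini-Hochberg adjustment over all 12908 tested genes and a threshold of 0.05. The test was checked on simulated counts with the same spread set for every gene, which does not show how it behaves where the spread differs. CPM use TMM library sizes for the 7 genes and the listed genes, and log2 CPM used a prior count of 2. Coordinates are those of GRCm38, and iron-responsive elements were read from GENCODE transcript sequences. Alternatives were DESeq2 1.42.0, limma-voom (limma 3.58.1), other scalings, filters and samples, no rounding and no sex term. Those without the 4 mice high in Fos and with the length trend removed were chosen after seeing the data, as were all alternatives for the tests of sex.

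The 7 genes and the gene lists were chosen with earlier results of these data known. Named genes were all 7 members, of each other iron list the genes past the threshold against WT or otherwise the 2 most abundant, and the 2 genes closest to each member by Pearson correlation. Names outside this rule are said to be so. One of the listed microglia markers is not reported here.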

Additional observations from a re-analysis of the deposited data

Results flagged for a closer look

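Slc40a1 in Het-cKO male M-0212, at 386.5 CPM, lay apart from the other 6 Het-cKO mice by Dixon's test for a single outlying value. Of 21 such tests, over 7 genes and 3 genotypes, 1 passed, and chance passes about 1 in 20.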

How the results depend on the processing

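Fth1 kept its direction and its call in Homo-cKO against WT and against Het-cKO under all 38 alternatives that used the adjusted p threshold alone. Its log2 fold changes were 0.39 to 0.61 and 0.60 to 0.82. Ftl1 kept its call against Het-cKO under all 38 (0.31 to 0.47). With a fold change above 1.5 required as well, Fth1 against WT and Ftl1 against Het-cKO did not pass. Of the 7 genes, 1 passed against WT, beside 2 with DESeq2, 0 with a fold change above 1.5 and 1 to 3 with 1 mouse left out (3 without WT F-0210, and 2 without WT F-0224 or Homo-cKO M-0437). Against Het-cKO 3 passed, beside 1 with a fold change above 1.5 and 2 to 3 with 1 mouse left out (2 without Het-cKO M-0227). Over all genes, the 1645 calls against WT became 880 with the immediate-early level as a covariate, 806 with the 04 range alone, 1062 without the 4 mice high in Fos and 1060 to 1729 with 1 mouse left out (1060 without WT M-0211), and the 2936 against Het-cKO became 1799, 1433 and 1898 under the first 3 of these and 2284 to 3024 with 1 mouse left out. These use fewer mice or an added term.

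Log2 fold changes close to 0 changed sign. Hmox1 in Het-cKO against WT was 0.0119 with the length trend removed and -0.0642 to 0.00642 with 1 mouse left out. Slc40a1 against Het-cKO was 0.0224 with the 03 range alone. Slc11a1 against WT was -0.0355 with the 03 range alone and -0.0240 to 0.0644 with 1 mouse left out. Tfrc against Het-cKO was -0.0921 with the immediate-early covariate, -0.0731 without the 4 mice high in Fos and -0.0457 to 0.182 with 1 mouse left out. The cause was not tested. The counts of 0 for Het-cKO against WT, for the difference between the sexes and for males against females held under each alternative. No paired analysis was possible because the groups share no replicate numbers. Tfrc, with the fewest counts, also had the largest standard error of the 7 genes in each comparison of genotypes, and whether depth limits its test was not tested.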
